A study of Mus musculus with 6 samples.

Results

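The immediate early response genes Fos, Fosb, Jun, Junb, Jund, Egr1, Egr2, Egr3, Dusp1 and Nr4a1 were followed in peritoneal cavity (PC) B1a cells of mice with and without the IL-2 receptor α chain. They were chosen by name, and every non-control probe carrying one of these gene names was read. All 10 genes had a probe, each of them 1, among 36163 gene names on the array, and 9 of the 10 could be tested among 18252 tested genes. None of the 9 passed the test of a difference between the genotypes. Their levels overlapped between the genotypes, and the fitted differences lay between -0.33 (Egr1) and 0.31 (Jun) on the log2 scale. Egr3 was not well above background on any array.

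The arrays hold B1a cells from 7-week-old female C57Bl/6 mice. The knockout group is p40-/- CD25-/- (n = 3), and the control group is p40-/- CD25+/- (n = 3). CD25 is the IL-2 receptor α chain, encoded by Il2ra, and p40 is the interleukin-12 subunit encoded by Il12b. By these labels both groups lack p40, the controls keep 1 functional Il2ra allele, and no p40-sufficient animals are compared here. Each sample was pooled from at least 3 mice, so the spread between arrays is between pools. The deletions are in the germ line and are not restricted to B cells, so loss of the receptor in the B1a cells and in other cells cannot be told apart.

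Immediate early genes are transcribed within minutes of a stimulus, because the factors that switch them on are already present in the resting cell. MAP kinases phosphorylate ternary complex factors bound with serum response factor at CArG boxes, and other kinases phosphorylate CREB bound at cAMP response elements (CRE). Fos and Jun proteins pair to form AP-1, Egr proteins are zinc finger transcription factors, Nr4a1 (Nur77) is an orphan nuclear receptor, and Dusp1 is a phosphatase that switches MAP kinases off again. In B cells these genes respond to antigen receptor signalling. Levels of Nr4a1 in particular are widely read as a trace of recent receptor signals. B1a cells are an innate-like B cell population of the body cavities that carry CD5 and recognise self antigens.

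Levels are the log2 processed signal of an Agilent array minus the 75th percentile of that array, so 0 is the brightness of the 75th percentile. That percentile was 252 to 272 on the control arrays and 66.5 to 162 on the knockout arrays, so the knockout arrays were dimmer throughout, and 39.7% to 45.9% of their spots were well above background against 47.2% to 50.6%. Il2ra itself was at 1.62, 1.13 and 1.35 in the controls and at -0.31, -0.59 and 0.86 in the knockouts. The genotypes did not overlap for Il2ra, but its difference of -1.38 (SE 0.37) did not pass the test (adjusted p = 0.12, limma), and signal remained on every knockout array. Il12b was well above background on all 6 arrays, between -2.25 and -1.92 in the controls and between -2.52 and -1.80 in the knockouts, although both groups are labelled p40-/-. Whether the Il2ra and Il12b probes lie inside the deleted parts is not given in the sources used here. The B cell gene Cd79a, and the B1a surface genes Cd5 and Itgam (CD11b), were well above background on all 6 arrays. Of 10 tested genes of the B1a list 6 were above 0 (median 0.20, from -0.23 to 0.79 for Itgam), and none passed either threshold. Of these 6, 4 were without overlap, beside 36.3% of all tested genes (14.7% with the knockouts above). Of markers of other cells, 13 macrophage genes had a summed level of 125 to 270 in the controls and 118 to 180 in the knockouts, 9 T cell genes 9.26 to 15.6 and 14.6 to 17.6, and 5 plasma cell genes 68.6 to 75.6 and 46.6 to 59.5, on the linear scale relative to the 75th percentile. These sums follow their brightest genes, such as Lck for the T cells. By gene, 8 of the 9 T cell genes had a difference above 0 (median 0.71) and Thy1 (2.13), Cd3d (1.41) and Zap70 (1.23) met the study's thresholds of at least 2-fold at an unadjusted p of 0.05 or less. These 3 were dim, with control means of -3.06, -2.73 and -2.42. Without a filter on dim probes the median difference of all genes was 0.40, against -0.12 with it. Of the 13 macrophage genes 12 were below 0 (median -0.24), with Retnla (-3.06) and Lyz2 (-1.08) past the study's thresholds, and all 5 plasma cell genes were below 0 (median -0.52), with Igj (-1.92) past them. Of 4 granulocyte and mast cell genes 3 were below 0 (median -0.76, from -2.01 for Mcpt4 to 0.43), and 4 B2 cell genes were split evenly around 0 (median 0.03, from -0.54 to 0.61). None of these passed the adjusted p. Of 8 NK cell genes, Ncr1, Klrb1c, Klrd1 and Klrk1 were well above background on no array, and the 2 that could be tested, Prf1 (difference 0.15) and Gzma (1.44), had a summed level of 0.521 to 0.635 in the controls and 0.621 to 0.878 in the knockouts. The part of these other cells in the levels below was not tested.

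The promoters were searched for the regulatory elements named above and for further motifs. A window of 250 bases upstream of the start was available for 8 of the 10 genes, all but Egr1 and Egr3, and is RefSeq sequence of GRCm38.p6, read 5′ to 3′ on the strand of the gene. The CRE core TGACG, on either strand, was found in the windows of 6 of the 8 genes (Fos, Fosb, Junb, Egr2, Dusp1 and Nr4a1) and in those of 19.8% of 27025 genes. Capitals mark the CRE core, the full CRE, the CArG box or the TATA box. Egr2 has windows from several transcripts with 2 different CArG boxes among them, and it is given by 30 bases that hold the box lying next to a CRE core.
Fos promoter (chr12:85473640-85473889, + strand): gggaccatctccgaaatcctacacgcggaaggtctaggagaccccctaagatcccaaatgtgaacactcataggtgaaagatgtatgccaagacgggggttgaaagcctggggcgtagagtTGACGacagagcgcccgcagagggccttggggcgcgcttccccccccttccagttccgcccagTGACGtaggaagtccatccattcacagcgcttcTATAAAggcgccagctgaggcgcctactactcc
Junb promoter (chr8:84978749-84978998, - strand): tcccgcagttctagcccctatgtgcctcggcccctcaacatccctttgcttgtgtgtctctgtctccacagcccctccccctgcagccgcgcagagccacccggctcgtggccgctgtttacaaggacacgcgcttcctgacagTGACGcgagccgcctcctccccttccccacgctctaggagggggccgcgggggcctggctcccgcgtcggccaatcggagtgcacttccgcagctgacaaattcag
Dusp1 promoter (chr17:26508473-26508722, - strand): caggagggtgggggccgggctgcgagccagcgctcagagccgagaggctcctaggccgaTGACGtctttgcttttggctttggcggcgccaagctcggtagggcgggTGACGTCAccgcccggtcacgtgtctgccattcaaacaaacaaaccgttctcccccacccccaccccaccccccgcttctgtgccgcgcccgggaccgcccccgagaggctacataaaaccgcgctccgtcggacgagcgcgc
Nr4a1 promoter (chr15:101266596-101266845, + strand): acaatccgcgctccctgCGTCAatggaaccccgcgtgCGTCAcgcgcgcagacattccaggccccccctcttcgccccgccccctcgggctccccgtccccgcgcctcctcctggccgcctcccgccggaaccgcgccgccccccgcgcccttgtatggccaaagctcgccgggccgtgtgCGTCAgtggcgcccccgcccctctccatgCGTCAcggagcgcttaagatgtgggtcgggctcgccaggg
Egr2 stretch (chr10:67537794-67537823, + strand): agtCCATATATGGgcagcgaCGTCAcgggt

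The Dusp1 window held the full CRE TGACGTCA, which was found in 1.77% of genes, and Nr4a1 held 4 CRE cores, all on the opposite strand. A CArG box was found in Egr2 alone among the 8, against 1.62% of genes, and the TATA box TATAAA in Fos alone, against 14.3%. The ETS core CCGGAA was found in 2 of the 8 (13.6% of genes), the EGR motif GCGNGGGCG in 2 (5.33%) and the AP-1 motif TGANTCA in none (7.82%). The windows of Jun and Jund held no CRE core, full CRE, CArG box or TATA box in these letters. TGACG is contained in TGACGTCA, so the full CRE also counts as a core. Both strands were searched, and a match describes the letters of the window and not a site in use. The lack of a match covers only these 250 bases and these exact letters, and sequence further upstream was not searched.

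The members differed in how they were read on the array. Fos had 10 spots on each array, which agreed closely, with a standard deviation of 0.03 to 0.06 on the log2 scale within an array. Each other gene had 1 spot. The AP-1 genes are related in sequence, and the probes were compared with each other. No 2 probes of the 10 genes shared a run of over 9 bases on either strand. The probes were not compared with the transcripts of the other genes, so whether they read each other was not tested. The first 30 bases of the probes of the genes that the comparisons of genes below turn on were as follows, with no base capitalised.
Fos probe (mm9, chr12:86817900-86817959, + strand): ggactttattttccagtagatagaaatcaa
Jun probe (mm9, chr4:94716928-94716987, - strand): atgctaacgcagcagttgcaaacgttttga
Junb probe (mm9, chr8:87501881-87501940, - strand): agggctttgcggacggttttgtcaaagccc

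Fos, the AP-1 subunit that cannot pair with itself, was 4.785, 5.146 and 4.999 in the controls and 4.906, 4.697 and 4.681 in the knockouts. Knockouts 2 and 3 lay below all controls, and knockout 1 lay between controls 1 and 3. The difference, knockout minus control, was -0.22 (SE 0.16, adjusted p = 0.38, limma), with a 95% interval of -0.58 to 0.15. Before scaling, the processed signal of Fos was 7269, 8942 and 8735 in the controls and 3897, 1726 and 4151 in the knockouts. The knockout signals were thus all lower before scaling, as was the 75th percentile of those arrays. Under normexp background correction with the same percentile, Fos differed by -0.52 (adjusted p = 0.0449). That setting also called 6443 genes, 35.3% of those tested, against 7 as reported here.

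Fosb, a close relative of Fos, was 4.29, 4.31 and 4.42 in the controls and 4.73, 4.56 and 4.13 in the knockouts. The knockout values enclosed all 3 control values, with a difference of 0.13 (SE 0.18, 95% interval -0.30 to 0.56). Most of the spread of this gene was among the knockouts (SD 0.31, n = 3) and little among the controls (SD 0.07, n = 3).

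Jun, the AP-1 subunit that pairs with Fos or with itself, had the highest difference of the 9 genes. It was 6.10, 6.12 and 6.56 in the controls and 6.47, 6.61 and 6.62 in the knockouts. Control 3 lay above knockout 1, and otherwise the knockouts were higher. The difference was 0.31 (SE 0.17, adjusted p = 0.28, limma, 95% interval -0.10 to 0.71).

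Junb, a weaker activator than Jun that can oppose it, was 1.36, 1.25 and 1.63 in the controls and 1.14, 0.79 and 1.33 in the knockouts. Knockouts 1 and 2 lay below all controls, and knockout 3 lay between controls 2 and 1. The difference was -0.33 (SE 0.19, adjusted p = 0.30, limma, 95% interval -0.77 to 0.12).

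Jund, the Jun family member that resting cells express most steadily, was 7.67, 7.73 and 7.90 in the controls and 7.79, 7.76 and 8.06 in the knockouts. It was the least variable of the 9 genes within genotypes, and its difference was 0.11 (SE 0.15, 95% interval -0.25 to 0.47). This direction turned under 4 other settings of scaling or background, with values of -0.21 to -0.07.

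**Figure D1:**
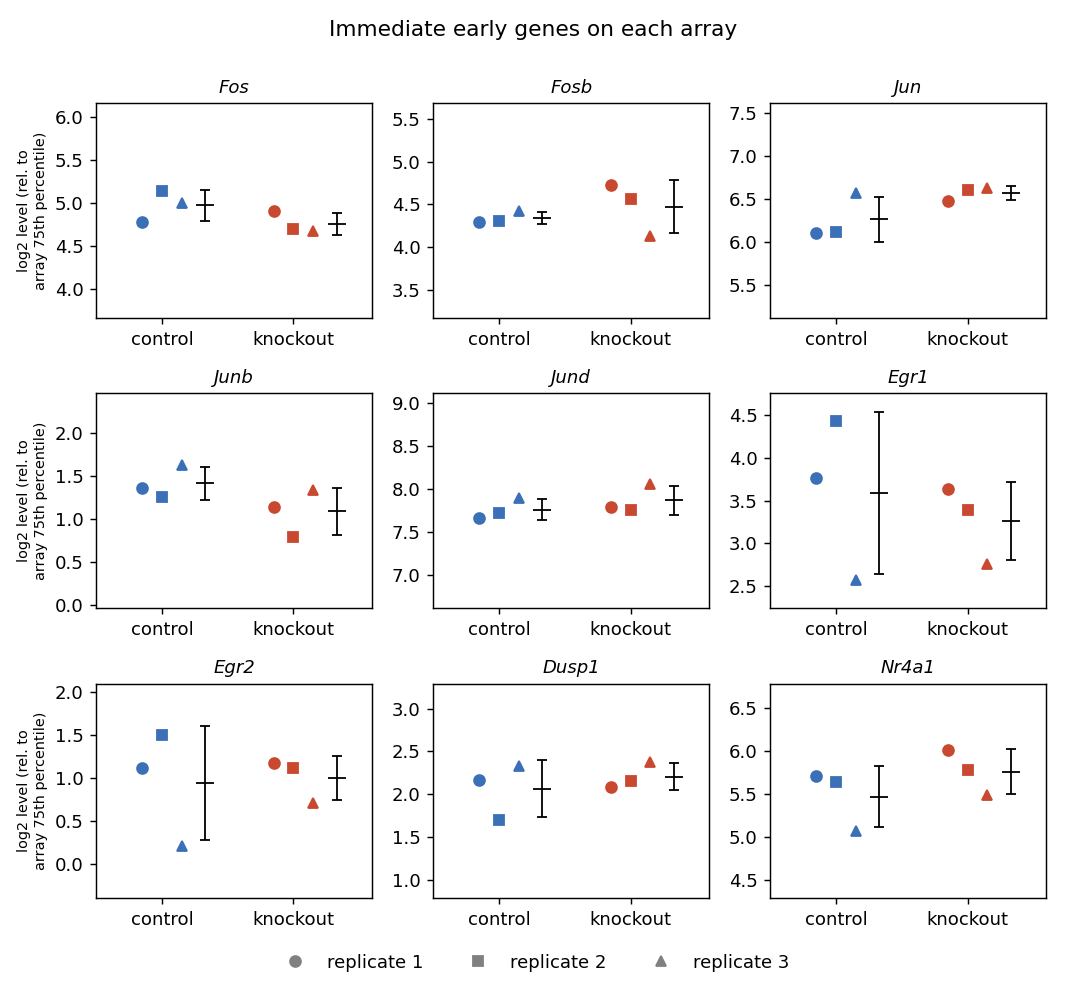
Levels of the 9 tested genes on each array, as log2 relative to the 75th percentile of the array, in control (blue) and knockout (red) samples; symbols are replicates, and the black bar is the mean ± SD of 3 arrays. Each panel spans the same range; the genotypes overlap in every panel, and Egr1 and Egr2 spread furthest.

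Egr1, a zinc finger factor that is a standard readout of MAP kinase signalling, was the most variable. It was 3.77, 4.43 and 2.57 in the controls and 3.63, 3.39 and 2.76 in the knockouts. Controls 2 and 3 were the highest and the lowest of the 6 arrays, and the knockouts lay between them. The difference was -0.33 (SE 0.47, adjusted p = 0.65, limma, 95% interval -1.42 to 0.77). It was -0.84 without control 3, and it turned to 0.094 without control 2 and to 0.12 with array weights. Its standard deviation within genotypes, 0.74, was at the 96.8th percentile of all tested genes, whose median was 0.24.

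Egr2, a factor linked to tolerance of lymphocytes, also had control 2 highest and control 3 lowest of the 6 arrays, at a smaller spread. It was 1.11, 1.50 and 0.20 in the controls and 1.17, 1.12 and 0.70 in the knockouts, and the knockouts again lay between these controls. The difference was 0.06 (SE 0.33, 95% interval -0.72 to 0.84), and it turned to -0.31 without control 3.

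Nr4a1 was 5.71, 5.64 and 5.06 in the controls and 6.01, 5.78 and 5.49 in the knockouts. Knockouts 1 and 2 lay above all controls, and knockout 3 lay below controls 1 and 2. The difference was 0.29 (SE 0.23, adjusted p = 0.41, limma, 95% interval -0.24 to 0.82).

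Dusp1 was 2.17, 1.70 and 2.33 in the controls and 2.08, 2.16 and 2.38 in the knockouts. The knockouts lay within or just above the range of the controls, with a difference of 0.14 (SE 0.20, 95% interval -0.33 to 0.61) that turned to -0.04 without control 2.

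Egr3, which acts with Egr2, had processed signals of 9.35, 2.42 and 3.89 in the controls and 9.89, 6.08 and 11.6 in the knockouts. None of these was well above background, so no fold is given and the gene was not tested. After scaling, these values were -4.82, -6.70 and -6.13 in the controls and -3.73, -3.45 and -3.80 in the knockouts. Each signal is there divided by the percentile of its array, which was lower for the knockouts.

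**Figure D2:**
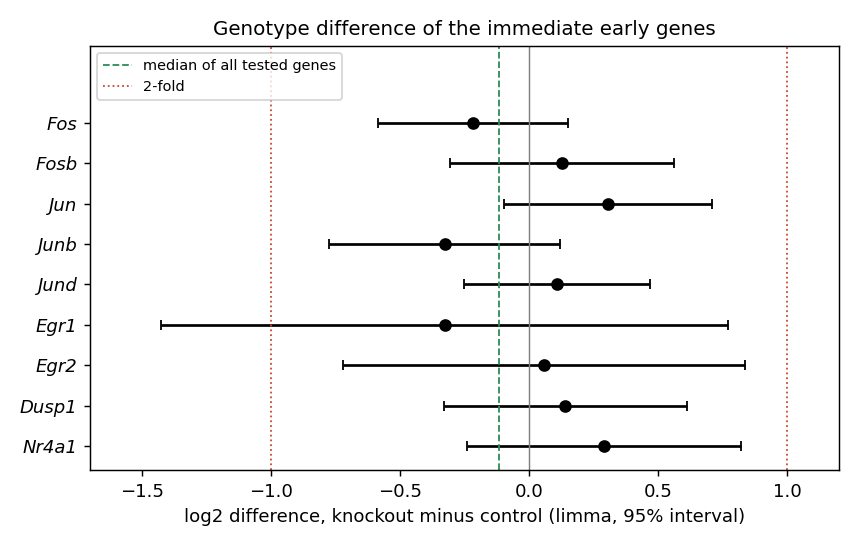
Difference of each tested gene, knockout minus control, in log2 units (points, limma) with its 95% interval (bars, not adjusted for the number of genes); the dashed line is the median of all tested genes, -0.12, and the dotted lines are 2-fold. All 9 intervals include 0, and that of Egr1 alone reaches beyond 2-fold.

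No member passed the adjusted p, which 0.0384% of the 18252 tested genes passed, all 7 of them higher in the knockouts, and 0.0808% of tested probes. No member met the study's 2-fold thresholds, which 3.52% of genes met (2.26% higher and 1.27% lower). At that unadjusted p alone there was again no member, against 25.1% of all genes, but Jun reached it in 5 alternatives, Egr1 in 2 and Fos in 1. The share of all genes in those alternatives is not given. The genotypes were free of overlap in 0 of 9 members and in 36.3% of all genes (14.7% with the knockouts above and 21.6% below). That count of 0 rose to 1 or 2 under other scalings and to 3 without control 3 or without knockout 3. Leaving out an array can only keep or raise such a count, and the share of all genes is not given for these settings. Of the 9 differences 6 were above 0 and 3 below, with a median of 0.11, and over all genes 39.8% were above 0, 60.2% were below 0 and the median was -0.12. Under normexp with the 75th percentile 8 of the 9 were instead below 0, with a median of -0.19, and without knockout 1 the median was 0.0033, so the lean of the members depends on the setting. These p-values do not show that the levels were equal. The intervals lay within 2-fold in both directions for 8 of the 9 genes, all but Egr1, and so did not reach a 2-fold change.

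The genes differed in which arrays were high and low within each genotype. Control 3 was the lowest of all 6 arrays for Egr1, Egr2 and Nr4a1, whereas for Fosb, Jun, Junb, Jund and Dusp1 it was the highest of the controls. Among the knockouts, knockout 1 was highest and knockout 3 lowest for Fos, Fosb, Egr1, Egr2 and Nr4a1, and knockout 3 was highest for Jun, Junb, Jund and Dusp1. In this order of the knockouts Fos and Fosb went with the Egr genes, and Jun, Junb and Jund with Dusp1. The order of 3 arrays was not tested. Knockouts 2 and 3 were close for Fos (4.697 and 4.681) and for Jun (6.61 and 6.62).

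**Figure D3:**
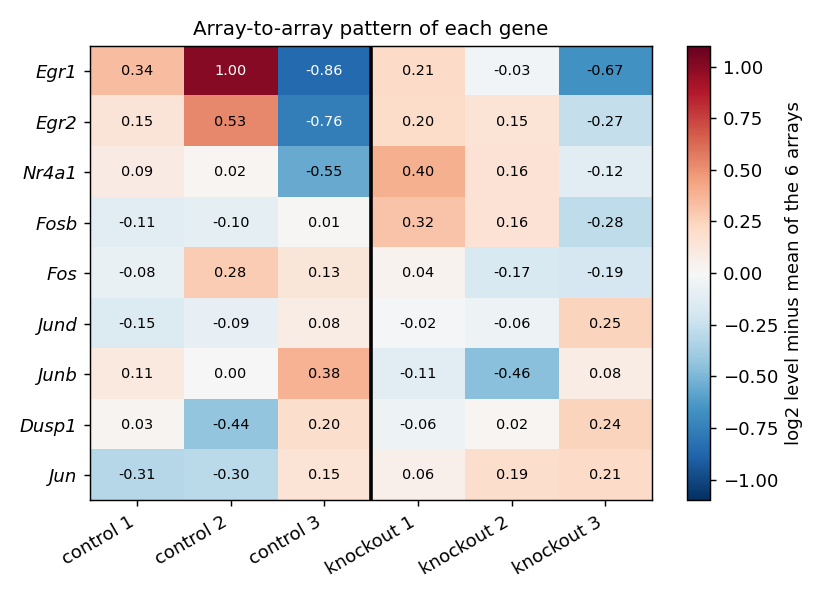
Level of each tested gene on each array minus its mean over the 6 arrays, in log2 units, with control arrays left of the line and knockout arrays right. Control 3 is low for Egr1, Egr2 and Nr4a1 and not for the other genes.

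Egr1 had the largest spread over the 6 arrays (SD 0.68), and the genes most like it were ranked by the root mean square distance of their log2 levels, each centred on its own mean. Egr2 lay at a distance of 0.28, rank 5 of 15665 genes that were well above background on all arrays, Nr4a1 at 0.50 (rank 328) and Fos at 0.57 (rank 1290). Jun and Dusp1 ranked 13630 and 13976. Outside the members the nearest 5 of 9663 genes with a symbol were Rpph1 (0.22), which encodes the RNA of RNase P, 4933426B08Rik (0.28), Rnu1b6 (0.28), a U1 small nuclear RNA, Prss23 (0.32), a serine protease, and Airn (0.35), a non-coding RNA. Rpph1 was 0.15, 0.94 and -0.40 in the controls and 0.50, -0.06 and -0.49 in the knockouts, with control 2 highest as for Egr1. These distances describe 6 arrays of this slide and were not tested. They are not scaled for spread, so the rank of a gene that varied little, such as Fos (SD 0.18), need not reflect a shared pattern.

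Differences between members within an array are free of any scaling that subtracts 1 value per array, though not of quantile normalization or background correction. Of the 36 pairs of tested members, 4 did not overlap between genotypes (11.1%), against 31.4% of all pairs of tested genes. With 1 array left out the count can only stay or rise, and it was 17 without control 3, 10 without knockout 3 and 7 without knockout 1. The share of all pairs is not given for these settings. Jun minus Junb was 4.75, 4.87 and 4.93 in the controls and 5.34, 5.82 and 5.29 in the knockouts, a shift of 0.63. Fos minus Jun was -1.32, -0.97 and -1.56 in the controls and -1.57, -1.91 and -1.94 in the knockouts, a shift of -0.52. Knockout 1 and control 3 lay next to each other for Fos minus Jun, and the gap between the genotypes was wider for Jun minus Junb. Junb minus Dusp1 and Junb minus Jund shifted by -0.47 and -0.43. Junb was in 3 of these 4 pairs and Jun in 2. In an exact two-sided permutation test each of the 4 had p = 0.1, the smallest that 3 arrays against 3 allow, and an adjusted p of 0.8 over the 36 pairs. The groups of Fos minus Jun overlapped under quantile normalization (shift -0.39), also after normexp (-0.41), and in the deposited log2 values (-0.38). Those of Jun minus Junb did not overlap in any setting run, with shifts of 0.42 to 0.73. Leaving out an array or scaling by 1 value per array could not make that pair overlap. The settings that could have were quantile normalization, normexp and the deposited values. The comparison of pairs was added after the data were seen.

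**Figure D4:**
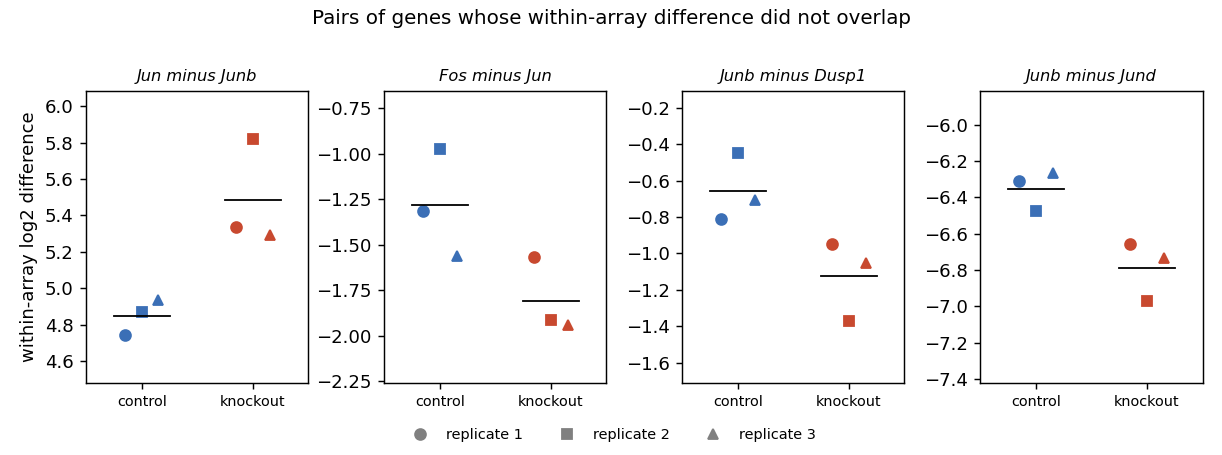
Within-array difference between 2 genes, in log2 units, in control (blue) and knockout (red) arrays for the 4 pairs whose groups did not overlap; symbols are replicates and lines are means of 3 arrays. Every panel spans the same range, and the pairs were chosen for their lack of overlap.

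The wider set of early response genes was read for comparison. Of 40 other immediate early genes, 37 were tested and 28 of these had a difference below 0, with a median of -0.19 against -0.12 for all genes. None of the 37 passed either threshold. The smallest unadjusted p belonged to Nr4a2, a relative of Nr4a1, at 0.69 (SE 0.17, adjusted p = 0.11, limma). It was -1.30, -1.73 and -1.59 in the controls and -0.83, -0.77 and -0.96 in the knockouts, so the groups did not overlap, but its second probe differed by only 0.20. Id2, an inhibitor of helix-loop-helix factors, differed by 0.86 (SE 0.28, adjusted p = 0.14, limma).

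Partners and regulators of the members were read from further lists, beside the 60.2% of all genes that were below 0. Of 11 AP-1 partners tested, 9 were below 0, with a median of -0.32, and Batf3, a factor that pairs with Jun proteins, passed the 2-fold thresholds at -1.42 (SE 0.46, adjusted p = 0.14, limma). Batf3 was 0.27, 0.74 and 0.70 in the controls and -1.97, -0.52 and -0.06 in the knockouts, without overlap. Both tested Egr co-repressors, Nab1 (-0.36) and Nab2 (-0.31), had differences below 0, and a second, dimmer probe of Nab2 gave 0.67. Of 9 dual specificity phosphatases other than Dusp1, 7 were below 0, among them Dusp3 (-0.57) and Dusp5 (-0.61), and another Dusp3 probe gave -0.17. The largest difference of these 9 was in the other direction, Dusp2 at 0.69 (adjusted p = 0.22, limma), and Dusp6 was at 0.48, both named after their values were seen.

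The factors and kinases that switch these genes on were read in the same way. Of 15 serum response and CREB factors, 10 were below 0 with a median of -0.23, and Elk4, a ternary complex factor, passed the 2-fold thresholds at 2.89 (SE 0.82, adjusted p = 0.12, limma). That Elk4 probe was 2.71, 2.82 and 2.74 in the controls and 4.84, 7.81 and 4.28 in the knockouts, with knockout 2, the dimmest array, highest, and the other Elk4 probes gave 0.22 and 0.80. Of 25 genes of the MAP kinase cascade, 18 were below 0 with a median of -0.20, and none passed either threshold. The smallest unadjusted p among these was that of Map3k5 (ASK1), at 0.85, whose other probe gave -0.05, followed by Rps6ka4 (MSK2), a kinase of CREB and histone H3, at -0.52. Of 12 heat shock genes, which respond to stress of the cell, 11 were below 0 with a median of -0.45. None of these 12 passed either threshold. Hspa8 stood apart at 0.73, with -0.30 and -0.14 on its other probes, and Bag3 was at -0.51.

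**Figure D5:**
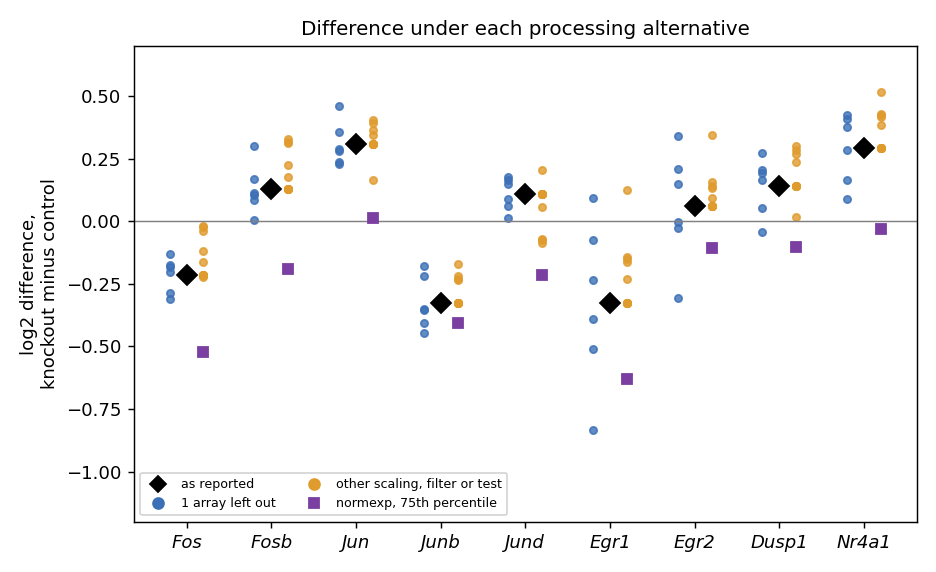
Difference of each tested gene, knockout minus control, in log2 units, as reported (black), with 1 array left out (blue), under other scalings, filters and tests (orange) and under normexp background correction with the 75th percentile (purple). Jun stays above 0 and Fos and Junb stay below 0 in all 19 alternatives, and every purple point lies below the value as reported.

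Over the 19 alternatives Jun ranged from 0.01 to 0.46, Junb from -0.45 to -0.17 and Fos from -0.52 to -0.02, each on 1 side of 0. The other 6 tested genes took both signs in at least 1 alternative. No member but Fos, in the 1 setting given above, passed the adjusted p in any of them.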

How the data were processed

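Total RNA of sorted PC B1a cells was labelled with Cy3 and hybridized to 6 one-colour arrays, all on 1 slide with 1 scan time. The authors deposited, per array, the spot intensity from Agilent Feature Extraction 10.7.1.1 (background subtracted, not scaled between arrays) with background marks, and a table of log2 values whose 6 columns hold identical sorted values, as after quantile normalization; how those log2 values were scaled is not given in the sources used here.

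From the 59305 non-control spots per array, log2 processed intensity minus the array's 75th percentile was taken, without outlier spots (163 to 251 per array), with replicate spots averaged per probe. Testing required a probe to be well above background on all 3 arrays in 1 or both genotypes, with values on 2 or more arrays in each. A gene took its brightest tested probe (24751 probes, 18252 genes). The comparison used limma 3.58.1 (lmFit, eBayes; R 4.3.3) with genotype as the only term and Benjamini-Hochberg adjustment over all genes (threshold 0.05). The study's thresholds (2-fold, unadjusted p of 0.05 or less) were read from the same fit. The limma fit alone was run on simulated gene values, and scaling, filtering and the choice of probe were not simulated. Precision is limited by how few arrays there are, and p-values measure the spread between these pools.

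Members and gene lists were chosen with earlier results of these data known. Named genes are all members and, per related pathway list, up to 3 that passed a threshold or else the 2 with the smallest unadjusted p; cell type lists are given by counts and ranges, with defining markers, those past a threshold and the ends of some ranges named. Dusp2 and Dusp6 lie outside this rule. Alternatives comprised scaling, background, filter, probe choice, test, array weights, replicate block and leaving out each array.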

Additional observations from a re-analysis of the deposited data

How the results depend on the processing

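Jund turned to -0.073 under quantile normalization, -0.077 under normexp with quantile normalization, -0.21 under normexp with the 75th percentile and -0.086 in the deposited log2 values. Normexp with the 75th percentile also turned Fosb (-0.19), Egr2 (-0.11), Dusp1 (-0.10) and Nr4a1 (-0.031), and array weights turned Egr1 (0.12). With 1 array left out, Egr1 ranged from -0.84 to 0.094, Egr2 from -0.31 to 0.34, Dusp1 from -0.042 to 0.27, Nr4a1 from 0.089 (without control 3) to 0.42 (without knockout 3), Fosb from 0.0033 (without knockout 1) to 0.30 (without knockout 3), Jund from 0.013 (without knockout 3) to 0.18, Fos from -0.31 to -0.13 (without control 2), Junb from -0.45 to -0.18 (without knockout 2) and Jun from 0.23 to 0.46; Egr1 and Dusp1 turned without control 2, and Egr2 without control 3, knockout 1 or knockout 2. The median of the members was 0.11, -0.19 under normexp with the 75th percentile, 0.20 when scaled on the median of detected probes, and 0.0033 to 0.11 with 1 array left out.

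Members whose genotypes did not overlap numbered 0, and 2 when scaled on detected probes, 1 under quantile normalization, both normexp settings, the deposited values and no filter, and 0 to 3 with 1 array left out (3 without control 3 or knockout 3). The unadjusted p of limma was 0.05 or less for Jun in 5 alternatives (0.0162 to 0.0484: quantile normalization with and without normexp, scaling on detected probes, trend and robust estimation, without control 3), for Egr1 in 2 (normexp with the 75th percentile, without control 3) and for Fos in 1. No member passed the adjusted p, except 1 (Fos) under normexp with the 75th percentile. Without a filter on dim probes 1 member, Egr3, passed the 2-fold thresholds, although it was well above background on no array, and 10640 genes did so against 643; the median of all genes then moved from -0.12 to 0.40. Genes at the 2-fold thresholds were 162 under normexp with quantile normalization, 190 under normexp with the 75th percentile and 601 to 1148 with 1 array left out. Their share higher in the knockouts was 64.1%, and 46.1% under quantile normalization, 80.9% and 54.2% under normexp with quantile normalization and with the 75th percentile, 77.4% when scaled on detected probes, 44.6% in the deposited values, 97.6% without the filter, 82.3% with probes above background on all 6 arrays and 50.2% with array weights.

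Genes past the adjusted p were 7, and 23 under quantile normalization, 13 and 6443 under normexp with quantile normalization and with the 75th percentile, 22 in the deposited values, 2 without the filter, 26 with probes above background on all 6 arrays, 11 with the mean of probes, 2 with the methods' t-test on the same values, 754 with trend and robust estimation, 1494 with array weights and 2 to 112 with 1 array left out. The fit with the replicate number as a block called 4 genes and no member. Same-numbered deviations correlated at 0.06 to 0.18, and all 6 arrays correlated best with their own number, a hint from the data, not the design. Non-overlapping pairs of members numbered 4, and 4 to 17 with 1 array left out: 17 without control 3, 7 without knockout 1 and 10 without knockout 3. Leaving out an array can only keep or raise this number. The causes were not tested.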
